A study of Homo sapiens with 4 samples.

Results

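ID1, ID2, ID3 and ID4 encode the inhibitors of DNA binding, and BMP2, BMP4, BMPR1A, BMPR2, SMAD6 and SMAD7 encode parts of the bone morphogenetic protein (BMP) pathway that regulates them. These 10 genes were taken by name from the 58735 genes counted in MHCC-97H cells, and all 10 were found in both deposited tables. MHCC-97H is an established, highly metastatic human hepatocellular carcinoma (HCC) line. Per the labels, cells of the parental genotype were given PBS or 2 μg of migrasomes (Migs), large vesicles shed by migrating cells, for 24 h. Normo-Migs came from MHCC-97H cells in normoxia, hypo-Migs from the same line in hypoxia, and CD147KO-Migs from a CD147-knockout derivative in hypoxia. The labels give the recipient cells of every group as WT. The oxygen level used for the Migs of this experiment and the number of knockout clones were not given in the sources used here. Each group had 1 library, 4 in all, and the batch label is the same for all of them. No value therefore has a replicate, no p-value is given, and every comparison is one between libraries.

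BMP ligands bind a pair of type I and type II receptors, which phosphorylate SMAD1, SMAD5 and SMAD9. These join SMAD4 and enter the nucleus, where they switch on target genes. The ID genes are among the best known of these targets. ID proteins have a helix-loop-helix domain but no DNA-binding domain, so they pair with E proteins such as TCF3 and keep them off their E-box sites. SMAD6 and SMAD7 are inhibitory SMADs, which are themselves induced by the pathway and dampen it. In hepatocytes BMP6 signalling drives HAMP, which encodes the iron hormone hepcidin.

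The promoters of ID1, ID2, ID3 and SMAD6 are shown first. RefSeq windows of 300 bases, from 250 before to 50 after the annotated start, were at hand for 9 of the 10 genes (13 windows, GRCh38.p14). Capitals mark the motifs searched on both strands: GGCGCC and GTCTG, short sequences bound by SMADs, GTCTAGAC, a palindrome of the SMAD box, CANNTG, the E-box, TATAAA, the TATA box, and ATTGG, the inverted CCAAT box. The windows lay at chr20:31605039-31605338 on the plus strand for ID1, chr2:8681806-8682105 on the plus strand for ID2, chr1:23559452-23559751 on the minus strand for ID3 and chr15:66701986-66702285 on the plus strand for SMAD6. All are written 5′ to 3′.
ID1: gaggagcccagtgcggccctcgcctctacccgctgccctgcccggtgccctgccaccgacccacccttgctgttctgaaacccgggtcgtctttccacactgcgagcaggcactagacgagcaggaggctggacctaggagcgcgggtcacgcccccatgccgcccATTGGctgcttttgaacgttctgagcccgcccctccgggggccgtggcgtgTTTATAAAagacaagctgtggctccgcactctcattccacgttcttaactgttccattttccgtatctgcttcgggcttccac
ID2: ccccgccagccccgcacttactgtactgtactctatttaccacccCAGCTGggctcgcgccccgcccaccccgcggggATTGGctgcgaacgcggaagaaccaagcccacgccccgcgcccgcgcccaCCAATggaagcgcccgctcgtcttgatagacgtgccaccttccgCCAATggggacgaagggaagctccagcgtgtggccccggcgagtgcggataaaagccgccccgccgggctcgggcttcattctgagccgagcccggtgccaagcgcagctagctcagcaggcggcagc
ID3: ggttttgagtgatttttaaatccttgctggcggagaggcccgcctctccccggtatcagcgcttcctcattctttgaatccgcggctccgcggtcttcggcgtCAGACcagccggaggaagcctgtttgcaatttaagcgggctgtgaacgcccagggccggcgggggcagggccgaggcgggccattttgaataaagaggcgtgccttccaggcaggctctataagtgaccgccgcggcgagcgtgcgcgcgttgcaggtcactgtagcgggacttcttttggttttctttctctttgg
SMAD6: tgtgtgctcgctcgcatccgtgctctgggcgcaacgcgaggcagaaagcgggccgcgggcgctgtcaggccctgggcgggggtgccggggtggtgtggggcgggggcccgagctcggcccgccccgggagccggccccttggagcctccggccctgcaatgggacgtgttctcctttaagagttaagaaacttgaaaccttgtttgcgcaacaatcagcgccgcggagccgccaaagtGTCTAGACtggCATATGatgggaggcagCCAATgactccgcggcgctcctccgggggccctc

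The ID1 window held a TATA box beginning 31 bases before the start, overlapped by a match on the other strand, and an inverted CCAAT box 84 bases before it. The ID2 window held no TATA box, 3 CCAAT boxes in either orientation and 1 E-box, whereas the ID3 window held a SMAD box alone, 147 bases before the start. The ID4 window, not shown because ID4 was hardly detected, held a TATA box 29 bases before the start, a SMAD box, an inverted CCAAT box and an E-box. TATAAA was present in 11.5% of the 35116 windows of this length, ATTGG in 34.6% and GTCTG in 45.3%, so these matches are common. The E-box, present in 68.7% of windows, was found in 8 of the 13 windows. The SMAD6 window held an E-box, a CCAAT box and, 12 bases before the start, GTCTAGAC, which 71 of all windows (0.202%) contained. GGCGCC was in 19.2% of windows and in 2 of the 13. The arrangement in which GGCGCC is followed, after 5 bases, by GTCT was in 0 of the 13 windows and in 36 of all windows (0.103%). These are letters in a short window, and binding was not measured. Sites farther than 250 bases before the start were not searched, so a motif missing here may lie outside the window.

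Before the values, the library labelled PBS has to be set apart. It had 3 or fewer reads on 251 genes that had at least 100 reads in each Mig library, whereas no other library lacked a single gene in this way. Among those 251 were 4 BMP pathway genes described below, BMP5, BMP7, GREM1 and MSX2. Reads on genes ranged from 33882496 to 40285223 per library, mitochondrial genes took 2.69% of them in the PBS library against 5.00% to 5.16% in the Mig libraries, and protein-coding genes 98.0% against 96.8% to 97.0%. Of the secreted liver proteins, ALB, AFP, APOB and TTR had 0 reads in every library, whereas FGB, which encodes a fibrinogen chain, had 0 reads with PBS and 561, 827 and 832 with normo-Migs, hypo-Migs and CD147KO-Migs. KRT8 and KRT18 were abundant in all libraries. The cell line is given here as the labels name it, and its identity was not checked in any library. The hepatocyte markers other than these keratins summed to 5.08 reads for every 1000000 reads on genes (CPM) in the PBS library and 20.8 to 28.6 in the Mig libraries, of which FGB gave 16.2 to 23.7. Of the 12 hepatocyte markers, 5 or 6 were at 0 in each library. SERPINA1 went the other way from FGB, with 25 reads with PBS and 2, 9 and 10 with normo-Migs, hypo-Migs and CD147KO-Migs. In the same order HNF4A had 134 and 146, 246 and 141 reads, and AHSG had 11 and 11, 9 and 10. The 9 fibroblast or stellate cell markers summed to 26.1 CPM with PBS and to 208 to 223 with Migs. COL1A1, DCN, LUM, PDGFRB and THY1, 5 of the 9, were at least 2-fold higher in CPM in every Mig library, PDGFRB with 70 reads for PBS and 1747 to 2446 for Migs. ACTA2 had 71 reads with PBS and 68 to 95 with Migs, COL3A1 had 27 and 14 to 27, and COL1A2 and PDGFRA had at most 2 in any library. The 7 endothelial markers summed to 3.48 CPM with PBS and 4.34 to 5.94 with Migs, and the 7 leucocyte markers to 0.708 and 1.45 to 2.85 CPM. PECAM1 had 16 reads with PBS and 118 to 146 with Migs, whereas CDH5 had 84 and 30 to 72, and TEK 11 and 0 to 3. CD14 had 14 and 47 to 86, and the other leucocyte markers had at most 8 reads in any library. The summed level of each marker list was lowest with PBS, and the part of these differences in the results below was not tested. With 1 library labelled PBS, a difference in its culture or cell stock and the treatment cannot be told apart, and each fold against PBS below is one against that library. In bulk RNA, fewer cells of a type and less RNA per cell cannot be told apart. Because all 3 comparisons to PBS share that library, their values are given side by side, and the pairs of Mig libraries give the comparisons without it.

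The ligands BMP2 and BMP4 moved in opposite directions. BMP2, on chromosome 20 (6767664-6780280, plus strand), had 1723 reads with PBS and 254, 328 and 215 with normo-Migs, hypo-Migs and CD147KO-Migs. In CPM this was 50.9 (95% Wilson interval 48.5 to 53.3), 7.35 (6.50 to 8.31), 8.14 (7.31 to 9.07) and 6.14 (5.37 to 7.01). The PBS library was the high one, and its interval lay far above the other 3. BMP4, on chromosome 14 (53949736-53958761, minus strand), had 97, 360, 581 and 485 reads in the same order, or 2.86 (2.35 to 3.49), 10.4 (9.39 to 11.5), 14.4 (13.3 to 15.6) and 13.8 (12.7 to 15.1) CPM. Here the PBS library was the low one, and normo-Migs lay below the other Mig libraries. All intervals cover counting error only, and without molecular identifiers the reads may include copies of 1 molecule.

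Fold changes were taken between libraries scaled by TMM, and a gene was called when it differed by at least 2-fold. With hypo-Migs, BMP2 was 6.11-fold lower than with PBS (exact 95% interval of the counts 5.43 to 6.90), with normo-Migs 6.70-fold lower and for CD147KO-Migs 8.13-fold lower. BMP4 was 5.15-fold higher with hypo-Migs (4.15 to 6.45), 3.76-fold higher for normo-Migs and 4.93-fold higher for CD147KO-Migs. Among the 12293 genes averaging at least 100 reads, 79 (0.643%) were at least as low against PBS as BMP2 in the hypo-Migs library, and 697 (5.67%) were at least as high as BMP4.

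Per length, the balance of the 2 ligands turned over. In FPKM, which divides reads by gene length and by library size, BMP2 was at 13.8, 2.05, 2.25 and 1.69 with PBS, normo-Migs, hypo-Migs and CD147KO-Migs, and BMP4 at 0.910, 3.40, 4.66 and 4.45. The ratio of BMP2 to BMP4 in FPKM was 15.2 (exact 95% interval 12.4 to 18.9) with PBS, 0.604 (0.512 to 0.711), 0.483 (0.421 to 0.554) and 0.379 (0.322 to 0.446) with normo-Migs, hypo-Migs and CD147KO-Migs. BMP2 thus made up 93.8% of the summed FPKM of this pair with PBS and 27.5% to 37.7% with Migs. These ratios are set within a library and do not depend on how libraries are scaled.

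**Figure D1:**
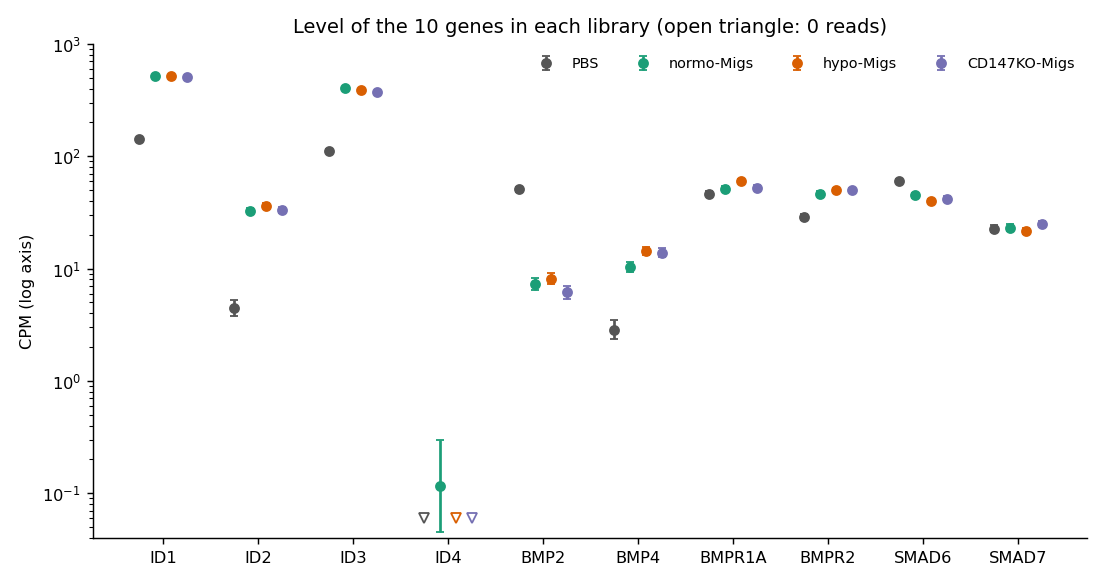
Level of each of the 10 genes in CPM on a log axis, 1 point per library, with 95% Wilson intervals of the reads (many are smaller than the point) and open triangles for 0 reads. ID1, ID2, ID3 and BMP4 are lowest with PBS, BMP2 is highest with PBS, and the Mig libraries lie close together for every gene except ID4, which had at most 4 reads.

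The receptors BMPR1A, a type I receptor on chromosome 10 (86756601-86932838, plus strand), and BMPR2, the type II receptor on chromosome 2 (202376936-202567751, plus strand), stayed within 2-fold. BMPR1A had 1572 reads with PBS and 1785, 2418 and 1841 with normo-Migs, hypo-Migs and CD147KO-Migs, or 46.4, 51.6, 60.0 and 52.5 CPM. BMPR2 had 973, 1607, 2029 and 1763 reads, or 28.7, 46.5, 50.4 and 50.3 CPM. Both were lowest with PBS, BMPR2 by the wider margin: with hypo-Migs it was 1.79-fold higher than with PBS (1.66 to 1.94) and BMPR1A 1.32-fold higher (1.24 to 1.41). The ratio of BMPR1A to BMPR2 in FPKM was accordingly 1.68 (1.55 to 1.83) with PBS and 1.16, 1.24 and 1.09 with normo-Migs, hypo-Migs and CD147KO-Migs. Reads on the processed copies BMPR1AP1 and BMPR1AP2 were at most 7 per library.

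The inhibitory SMADs did not follow the ID genes. SMAD6, on chromosome 15 (66702228-66782848, plus strand), had 2026 reads with PBS and 1554, 1608 and 1469 with normo-Migs, hypo-Migs and CD147KO-Migs, or 59.8, 45.0, 39.9 and 41.9 CPM. It was 1.47-fold lower with hypo-Migs than with PBS (1.37 to 1.57), 1.29-fold lower for normo-Migs and 1.40-fold lower for CD147KO-Migs. Its promoter window is the one above with the palindromic SMAD box. SMAD7, on chromosome 18 (48919853-48952052, minus strand), had 766, 799, 870 and 877 reads, or 4.40, 4.62, 4.27 and 4.93 FPKM. Its log2 fold change against PBS was -0.03 with hypo-Migs (-0.18 to 0.11) and 0.08 for normo-Migs, both within counting error, and 0.17 for CD147KO-Migs (1.13-fold, 1.02 to 1.24). The ratio of SMAD6 to SMAD7 in FPKM was 1.55 (1.43 to 1.69) with PBS and 0.985 to 1.14 with Migs.

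The ID genes ID1, ID2 and ID3 were all higher in the Mig libraries. ID1, on chromosome 20 (31605283-31606515, plus strand), had 4803 reads with PBS and 17985, 20813 and 17932 with normo-Migs, hypo-Migs and CD147KO-Migs. That was 142 CPM (138 to 146) with PBS and 520 (513 to 528), 517 (510 to 524) and 512 (504 to 519) with the Migs. The Wilson intervals of the Mig libraries overlapped their neighbours, and PBS stood apart as the low library. ID3, on chromosome 1 (23557918-23559794, minus strand), gave 3775, 14052, 15564 and 12983 reads, or 111, 407, 386 and 370 CPM. ID2, on chromosome 2 (8678845-8684453, plus strand), was the least abundant of these, with 151, 1134, 1465 and 1166 reads, or 4.46 (3.80 to 5.23), 32.8 (31.0 to 34.8), 36.4 (34.6 to 38.3) and 33.3 (31.4 to 35.2) CPM. ID2 shares 38 exon bases with ID2-AS1 on the opposite strand, which had 2, 14, 4 and 13 reads, and whether the counting used strand is not given in the sources used here. ID4, on chromosome 6 (19837386-19840684, plus strand), had 4 reads with normo-Migs and 0 in the other libraries, which allows up to 3 reads there. It was not detectable at this depth in those 3 libraries and was not compared.

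With hypo-Migs, ID1 was 3.73-fold (3.61 to 3.85), ID2 8.34-fold (7.05 to 9.93) and ID3 3.55-fold higher than with PBS. With normo-Migs the folds were 3.79, 7.61 and 3.77, and with CD147KO-Migs they were 3.68, 7.61 and 3.39. Many genes rose as far. Of the 12293 genes averaging at least 100 reads, 835 (6.79%) were at least as high as ID1 with hypo-Migs against PBS. For ID2 these were 551 (4.48%) and for ID3 859 (6.99%). Per length, ID1 was the most abundant of the 10 genes in every library, at 113 FPKM with PBS and 411 to 424 with Migs, followed by ID3 at 60.7 and 204 to 228. ID2 was eighth with PBS, at 1.98 FPKM, and ranked directly after ID3 in each Mig library, at 15.0 to 16.4. Below it SMAD6, SMAD7, BMPR1A, BMPR2 and BMP4 lay between 3.40 and 5.28 FPKM in the Mig libraries, in an order that differed from library to library, and BMP2 and ID4 came last. SMAD6 and SMAD7 were neighbours in the order of every library. Their ratio lay above 1 beyond counting error with PBS, as given above, and with normo-Migs, at 1.14 (1.05 to 1.25). It did not differ from 1 beyond counting error with CD147KO-Migs, at 0.985 (0.905 to 1.07). With hypo-Migs, at 1.09 (0.9997 to 1.18), the interval only just included 1. The FPKM of ID1, ID2 and ID3 together was 175 with PBS and 667, 647 and 631 with normo-Migs, hypo-Migs and CD147KO-Migs.

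The ratio of ID1 to ID3 in FPKM hardly moved between PBS, at 1.85 (1.78 to 1.94), and normo-Migs, at 1.87 (1.82 to 1.91), and was 1.95 (1.91 to 1.99) for hypo-Migs and 2.01 (1.97 to 2.06) for CD147KO-Migs. The ratio of ID2 to ID1 was 0.0176 (0.0149 to 0.0207) with PBS, against 0.0353 (0.0332 to 0.0374), 0.0394 (0.0373 to 0.0415) and 0.0364 (0.0342 to 0.0386) with normo-Migs, hypo-Migs and CD147KO-Migs. ID2 was therefore higher relative to ID1 in every Mig library than with PBS, by more than the counting error.

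**Figure D2:**
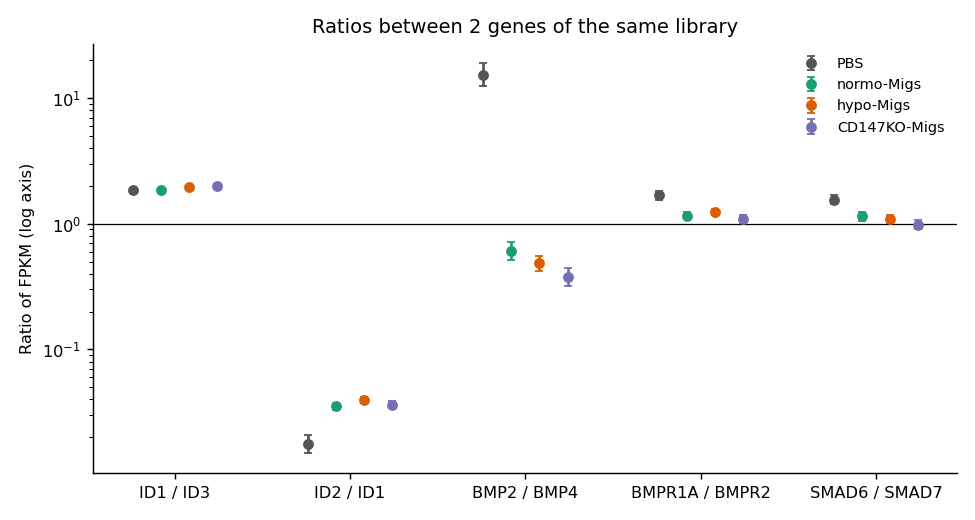
Ratio of the FPKM of 2 genes within each library on a log axis, with exact 95% counting intervals and a line at 1. The ratio of ID1 to ID3 stays between 1.85 and 2.01, whereas BMP2 to BMP4 drops from 15.2 with PBS to 0.379 to 0.604 with Migs.

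Counted together against PBS, 9 of the 10 genes passed the filter of at least 10 reads in at least 1 library, and each of these 9 had at least 10 reads in every library. In each of the 3 comparisons ID1, ID2, ID3 and BMP4 were at least 2-fold higher, BMP2 was at least 2-fold lower, and BMPR1A, BMPR2, SMAD6 and SMAD7 were within 2-fold. Of all 19895 genes tested, 18.9% were 2-fold higher and 11.6% 2-fold lower with hypo-Migs, 18.1% and 12.0% for normo-Migs, and 18.3% and 12.0% for CD147KO-Migs. Among genes averaging at least 100 reads the shares were 12.5% and 5.63% with hypo-Migs, 12.1% and 5.54% for normo-Migs, and 12.5% and 5.64% for CD147KO-Migs. The count of 4 of 9 higher stands above these shares, but the genes were chosen with results of these data known and nothing particular to them is read from it. The median log2 fold change of the 9 genes was 0.84 with hypo-Migs, 0.74 for normo-Migs and 0.84 for CD147KO-Migs, beside 0.04, 0.03 and 0.03 over all genes tested.

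**Figure D3:**
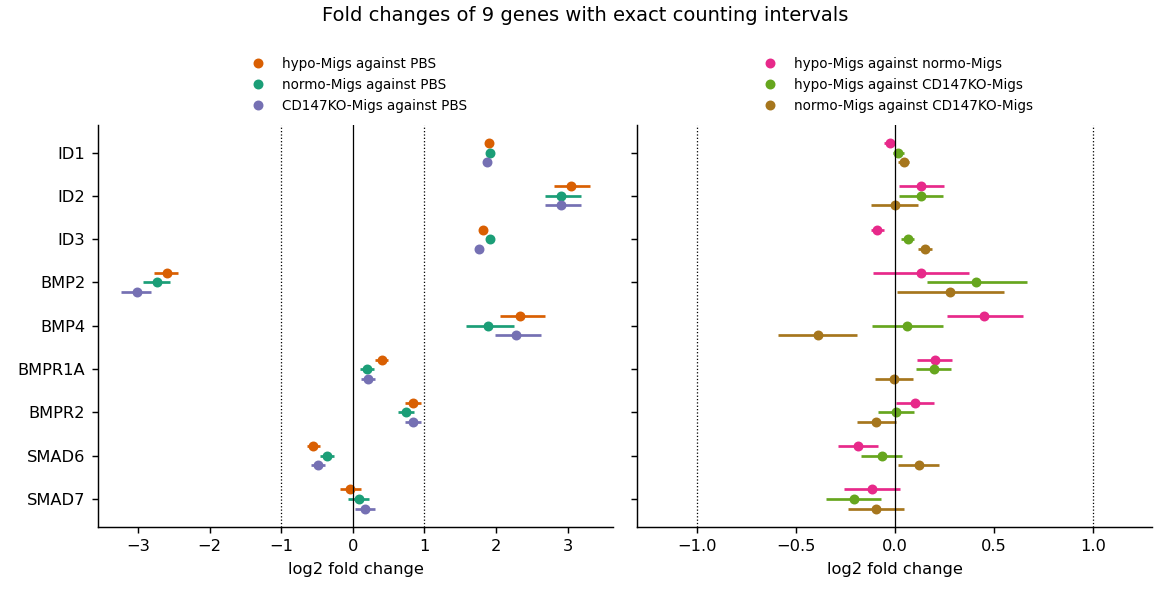
Log2 fold changes of the 9 genes tested, on the left against PBS and on the right between Mig libraries (a narrower axis), with exact 95% counting intervals as bars and dotted lines at 2-fold. Against PBS 5 genes lie beyond 2-fold in each comparison, and between Mig libraries none does, the farthest being BMP4 at 0.45 between hypo-Migs and normo-Migs.

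Hypo-Migs and normo-Migs differed in the culture of the donor cells, and hypo-Migs and CD147KO-Migs in the donor line, parental or CD147-knockout. With 1 library per group, neither can be told apart from differences between Mig preparations or libraries. CD147 on the Migs was not measured in these data. None of the 9 genes differed by 2-fold between any Mig libraries, where 9.34% of all genes tested did so between hypo-Migs and normo-Migs, 9.12% between hypo-Migs and CD147KO-Migs and 9.69% between normo-Migs and CD147KO-Migs. Among genes averaging at least 100 reads those shares were 0.236%, 0.195% and 0.236%, so the 2-fold calls came mostly from genes with few reads.

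Between hypo-Migs and normo-Migs the counting interval of the fold change left out 0 on the log2 scale for 6 of the 9 genes, 4 higher and 2 lower with hypo-Migs. That was so for 40.9% of the genes averaging at least 100 reads. BMP4 was the farthest, 1.37-fold higher with hypo-Migs (1.20 to 1.57), and 202 of those genes (1.64%) were at least as high. BMPR1A was 1.15-fold higher (1.08 to 1.22) and ID2 1.10-fold higher (1.01 to 1.19), while SMAD6 was 1.14-fold lower (1.06 to 1.22). ID1 differed by a log2 of -0.03, within its counting error (-0.05 to 0.00317).

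Between hypo-Migs and CD147KO-Migs the interval left out 0 for 5 of the 9 genes, 4 higher and 1 lower with hypo-Migs, against 40.7% of genes. BMP2 was 1.33-fold higher with hypo-Migs (1.12 to 1.59), with 213 genes (1.73%) at least as high, although it had only 328 and 215 reads. SMAD7 was 1.16-fold lower with hypo-Migs (1.05 to 1.27), and BMP4 differed by a log2 of 0.06, within its counting error. Between normo-Migs and CD147KO-Migs the interval also left out 0 for 5 genes, against 40.5%. There BMP4 was 1.31-fold lower with normo-Migs (1.14 to 1.51), and ID3 was higher by a log2 of 0.15. ID1 was also among the 5, higher with normo-Migs by a log2 of 0.04 (0.01 to 0.07).

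No replicate shows how far such differences vary from culture to culture. For scale, the median size of the log2 fold change over genes averaging at least 100 reads was 0.0896 between hypo-Migs and normo-Migs, 0.0879 between hypo-Migs and CD147KO-Migs and 0.0955 between normo-Migs and CD147KO-Migs, with 95th percentiles of 0.367, 0.376 and 0.400. Against PBS the median was 0.42 to 0.43, with 95th percentiles of 2.98 for hypo-Migs, 3.01 for normo-Migs and 3.06 for CD147KO-Migs. Of the 9 genes only ID2 with hypo-Migs, at 3.04, lay beyond the percentile of its comparison to PBS. These percentiles take size without direction. By direction BMP2 was farther out with hypo-Migs, where 0.643% of those genes were at least as low and 4.48% at least as high as ID2. BMP4 between hypo-Migs and normo-Migs, at 0.45, and BMP2 between hypo-Migs and CD147KO-Migs, at 0.41, lay beyond the 95th percentile of their comparison. No ID gene did so in any pair of Mig libraries.

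**Figure D4:**
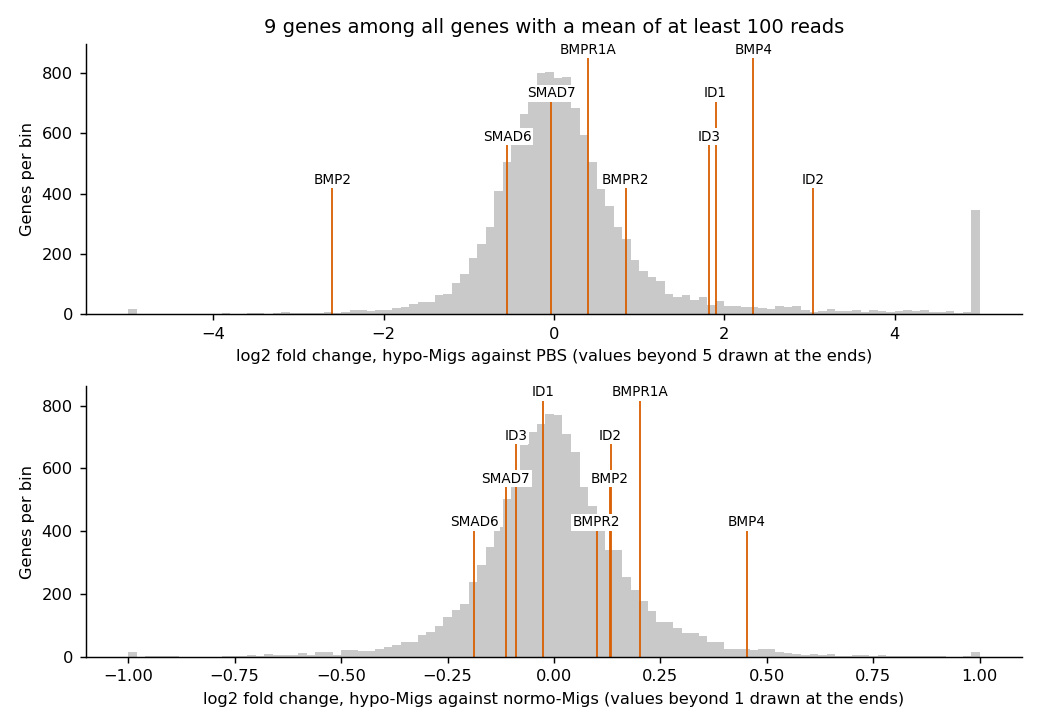
Distribution of the log2 fold change over the 12293 genes averaging at least 100 reads (grey bars, genes per bin), with the 9 genes as orange lines, for hypo-Migs against PBS above and against normo-Migs below. BMP2 and ID2 lie in the tails against PBS, and BMP4 is the farthest of the 9 against normo-Migs.

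The genes whose pattern over the 4 libraries was most like each ID gene were sought among 11440 genes that encode proteins and averaged at least 100 reads, by the Euclidean distance of centred log2 CPM. Nearest to ID1 were AP1S3, S1PR3 and RGS17, at distances of 0.03, 0.04 and 0.07. Nearest to ID2 were MKX, CARD16 and FHL1, and nearest to ID3 were RUNX3, TBXAS1 and MAPT. Within a distance of 0.25 there were 132 of the 11440 genes for ID1, 43 for ID2 and 123 for ID3. Patterns this close to those of the ID genes over 4 libraries were thus found in other genes too. ID3 was 14th in the order for ID1, and ID1 was 13th in the order for ID3, while ID2 came 1137th for ID1.

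A list of 57 other genes of the pathway was described in the same way, and 44 of them passed the filter. Of the 13 that did not, 11 had 0 reads in every library, among them HAMP, the hepcidin gene. With hypo-Migs 20 of the 44 were at least 2-fold higher than with PBS and 3 lower, with normo-Migs 21 and 4, and for CD147KO-Migs 20 and 3. Of all genes tested, 18.9%, 18.1% and 18.3% were 2-fold higher in these comparisons, and 11.6%, 12.0% and 12.0% lower. However, 9 of the 44 had fewer than 10 reads with PBS and passed through the Mig libraries, so a higher value with Migs was built into their selection. Among the 32 that reached 10 reads in each library, 11, 12 and 11 were higher and 1 was lower each time, where 10.5%, 10.0% and 10.5% of the 14970 genes so filtered were higher and 7.87%, 7.88% and 7.84% lower. Their median log2 fold change was 0.34 with hypo-Migs, 0.38 for normo-Migs and 0.32 for CD147KO-Migs, beside -0.01, -0.00 and -0.01 over those genes. This list too was chosen with results of these data known. Nothing particular to the pathway is therefore read from its counts and medians, here or by role below.

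Among the ligands of the list, BMP6 had 1008 reads in the PBS library and 2203, 2375 and 1867 with normo-Migs, hypo-Migs and CD147KO-Migs, 2.03-fold higher for hypo-Migs (1.88 to 2.18) and below 2-fold for CD147KO-Migs, at a log2 of 0.87. BMP5 had 0 reads with PBS and 202, 241 and 231 with Migs, and BMP7 had 0 and 543, 601 and 517. Against a floor of 3 reads in the PBS library, BMP5 was at least 69.1-fold and BMP7 at least 172-fold higher with hypo-Migs. Both belong to the 251 genes that set the PBS library apart. The 5 ligands BMP2, BMP4, BMP5, BMP6 and BMP7 summed to 25.2 FPKM with PBS and to 32.9, 32.3 and 29.5 with normo-Migs, hypo-Migs and CD147KO-Migs. BMP2 gave the largest share of that sum with PBS, 54.8%, and BMP6 with Migs, 64.4% to 70.1%.

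Of the receptors and co-receptors, 10 of 11 passed the filter, and 2 were at least 2-fold higher and 1 lower in each comparison to PBS, close to the 18.1% to 18.9% and 11.6% to 12.0% of all genes tested. The type I receptor BMPR1B had few reads, 19 with PBS and 70, 79 and 50 with normo-Migs, hypo-Migs and CD147KO-Migs, 3.58-fold higher for hypo-Migs (2.15 to 6.25). RGMA, a BMP co-receptor, had 30, 106, 149 and 115 reads. The type I receptor ACVR1 had 496, 487, 606 and 549 reads, a log2 of 0.07 with hypo-Migs against PBS, within its counting error. The type II receptors ACVR2A and ACVR2B gave 0.53 and -0.25.

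The signal-carrying SMADs were within 2-fold. SMAD1 had 601 reads with PBS and 372, 374 and 388 with normo-Migs, hypo-Migs and CD147KO-Migs, 1.87-fold lower for hypo-Migs (1.64 to 2.13). SMAD5, the most abundant of the 3 in FPKM, had 2774, 2901, 3572 and 3121 reads, a log2 of 0.15 with hypo-Migs. SMAD9 gave 0.20, within its counting error, and SMAD4 gave -0.32. PPM1A, a phosphatase that acts on SMADs, was the exception among the 7 genes of this group, with 786, 1663, 2116 and 1745 reads, 2.31-fold higher with hypo-Migs (2.13 to 2.52).

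Of the antagonists, 7 of the 13 tested were at least 2-fold higher with hypo-Migs than with PBS and 2 lower. The shares of all genes tested were 18.9% and 11.6%. However, 5 of the 7, GREM1 and FST among them, had fewer than 10 reads with PBS and passed the filter through the Mig libraries. Of the 6 that reached 10 reads in each library, 2 were higher and 1 lower, where 10.5% and 7.87% of all genes so filtered were. NOG, which encodes noggin, had 186 reads with PBS and 513, 716 and 675 with normo-Migs, hypo-Migs and CD147KO-Migs, 3.31-fold higher for hypo-Migs (2.81 to 3.91). CHRD, which encodes chordin, had 74, 232, 277 and 313 reads. GREM1, which encodes gremlin, had 2 reads with PBS and 2308, 2623 and 2101 with Migs, a ratio of 1128 with hypo-Migs (312 to 9317), and FST, which encodes follistatin, had 4 and 337, 574 and 375. NBL1, another antagonist of the same family as gremlin, went the other way, with 5353 reads with PBS and 1584, 1723 and 1601 with Migs, 3.61-fold lower with hypo-Migs (3.42 to 3.82). The membrane-bound decoy receptor BAMBI was at a log2 of 0.53 with hypo-Migs.

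Of the 7 listed target genes 5 passed the filter, MSX2 only through the Mig libraries. The other 4, which had 10 or more reads in each library, were at least 2-fold higher in each comparison to PBS, where 10.0% to 10.5% of all genes so filtered were. They too were listed with results of these data known, and nothing particular to targets is read from this count. HEY1, a transcriptional repressor also known as a Notch target, had 160 reads with PBS and 2511, 3075 and 2577 with normo-Migs, hypo-Migs and CD147KO-Migs, 16.5-fold higher for hypo-Migs (14.1 to 19.5). ATOH8 had 131, 374, 441 and 355 reads, the homeobox gene MSX1 had 92, 391, 357 and 377, and RUNX2, a regulator of bone formation, had 89, 330, 310 and 308. MSX2 had 0 reads with PBS and 273, 332 and 232 with Migs, at least 95.2-fold higher with hypo-Migs.

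Of the E proteins, which ID proteins bind, TCF3 and TCF12 were within 2-fold. TCF3 had 7330 reads with PBS and 8510, 9603 and 8726 with normo-Migs, hypo-Migs and CD147KO-Migs, a log2 of 0.17 for hypo-Migs, and TCF12 gave 0.02, within its counting error. TCF4 had 19 reads with PBS and 418, 455 and 395 with Migs, 20.6-fold higher with hypo-Migs (13.0 to 34.5). Among the 44 list genes tested, 2 were 2-fold higher and 1 was lower for hypo-Migs against normo-Migs. The counts were 2 and 0 for hypo-Migs against CD147KO-Migs, and 1 and 2 for normo-Migs against CD147KO-Migs. Over all genes tested, 9.34%, 9.12% and 9.69% differed by 2-fold either way in the same pairs. Nothing particular to the list is read from its counts here. The list genes called in these pairs had few reads, and no gene with its reads given here was among them.

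**Figure D5:**
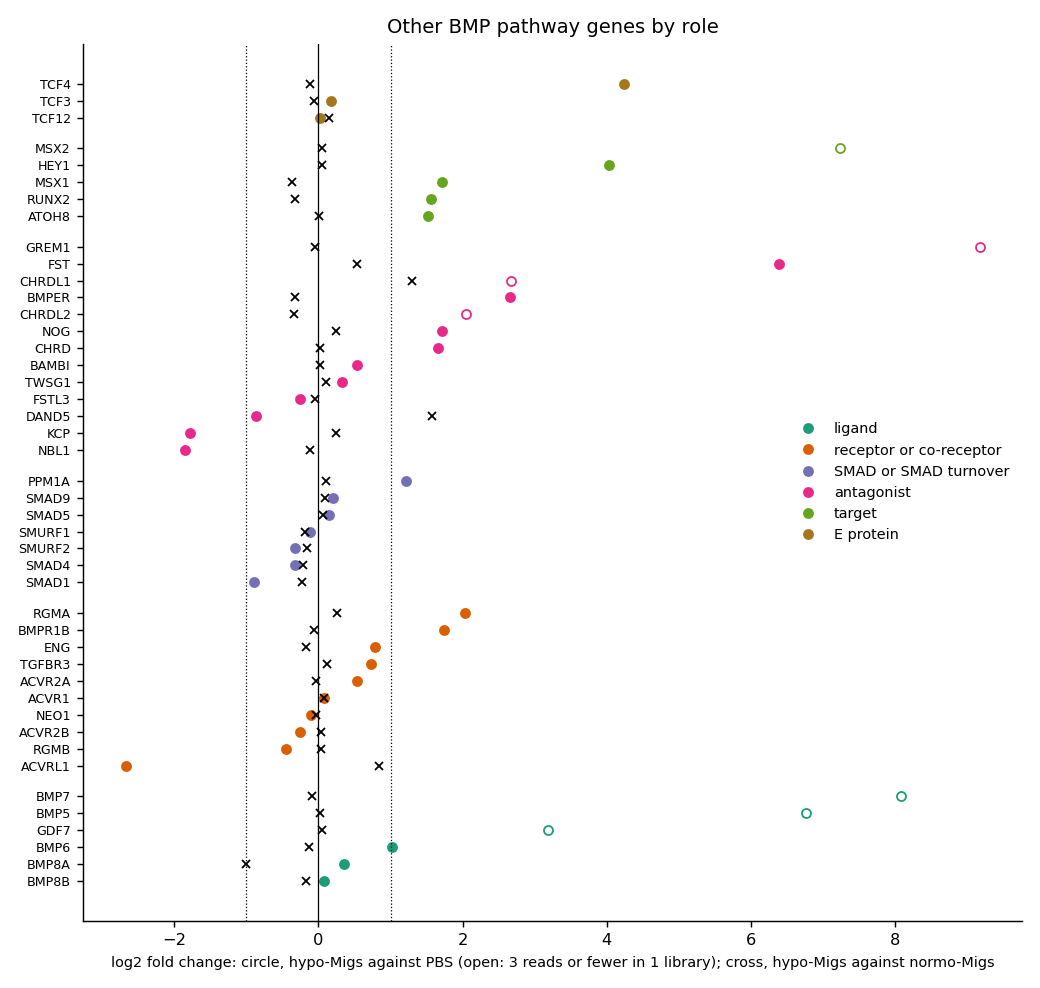
Log2 fold change of the 44 pathway genes tested, grouped by role and sorted, with circles for hypo-Migs against PBS (open where 1 of the libraries had 3 reads or fewer) and crosses for hypo-Migs against normo-Migs. The 4 targets that had reads in each library lie beyond 2-fold against PBS, as does MSX2, while all SMADs and their turnover genes other than PPM1A lie within it, and the crosses stay close to 0 for most genes. The list was chosen with results of these data known.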

How the data were processed

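The authors deposited raw counts, reads per gene without normalization, and an FPKM table, scaled by the authors for gene length and library size. Per the labels the build was hg38, and the submitters' processing notes name CASAVA 1.8, fastp, HISAT2 2.0.5 and featureCounts 1.5.0-p3. The labels and the supplementary methods give the normo-Migs donor culture as normoxic, and they were followed over 1 sentence of the main methods that names hypoxia for that group too. All 10 genes had the coordinates of GENCODE release 29. From there on edgeR 4.0.16 and, as an alternative, the size factors of DESeq2 1.42.0 were run in R 4.3.3, and intervals were computed with scipy 1.17.1, pandas 2.3.3 and numpy 2.4.6 in Python 3.11.15 (plots, matplotlib 3.10.9). A gene was kept if any library had 10 reads or more on it, libraries were scaled by TMM (factors 1.02, 0.986, 0.996 and 0.999 for PBS, normo-Migs, hypo-Migs and CD147KO-Migs), and 2 was the prior count behind each log2 fold change. Quasi-likelihood tests have no residual degrees of freedom with 1 library per group, so none was run. Ratios were given exact 95% intervals and CPM 95% Wilson intervals, which cover counting error only. The calculation was run on simulated counts that held counting error alone, which checks the arithmetic and not the spread between cultures. A count of 0 was taken to allow 3 reads.

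The 10 genes, the pathway list and the marker lists (hepatocyte, fibroblast or stellate cell, endothelial cell, leucocyte) were chosen with earlier results of these data known. Named from the pathway list were genes that reached 100 reads in any library and showed a 2-fold difference in any pair, 16 in all, together with SMAD1, SMAD5, SMAD9, SMAD4, ACVR1, BMPR1B, ACVR2A, ACVR2B, NOG, GREM1, BAMBI, HAMP, TCF3, TCF4 and TCF12, and the 3 genes most like each of ID1, ID2 and ID3. The comparisons that need replicates, and the other experiments of the study, were not analysed here.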

Additional observations from a re-analysis of the deposited data

How the results depend on the processing

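The 2-fold calls of the 9 genes kept their direction and side in all 567 values computed under other scalings, filters, prior counts, gene sets and the FPKM table, as well as without the PBS library for the Mig pairs. The sign of ID2 between normo-Migs and CD147KO-Migs, at -0.00, turned in 2 of these settings. The scalings tried did not move the median of all genes by more than 0.1. On the log2(FPKM + 1) scale, which understates low genes, BMP4 against PBS came to 1.57 with hypo-Migs, 1.20 for normo-Migs and 1.51 for CD147KO-Migs. With no filter beyond 1 read, ID4 differed by 2-fold and was then the only 1 of the genes to do so in a Mig pair, 1 for hypo-Migs against normo-Migs and 1 for normo-Migs against CD147KO-Migs, where there had been 0.

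Counts over the pathway list depended on genes with few reads. The 2-fold genes numbered 23 with hypo-Migs against PBS, 25 for normo-Migs and 23 for CD147KO-Migs. They came to 12, 13 and 12 with at least 10 reads in every library, and to 9, 10 and 9 with log2(FPKM + 1). Between hypo-Migs and normo-Migs, hypo-Migs and CD147KO-Migs, and normo-Migs and CD147KO-Migs they numbered 3, 2 and 3. They came to 1, 0 and 0 with at least 10 reads in every library, to 0, 0 and 0 with log2(FPKM + 1), and to 0, 0 and 1 with log2(FPKM + 0.1). With a prior count of 5 the first and the second came to 1 and 1. No paired analysis was possible because each group had 1 library and the labels give no replicate numbers. Depth limits ID4, and BMP2 and BMP4 between Mig libraries, most.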
